A study of Mus musculus with 2 samples.

Results

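The narrow peaks of USP21 on mouse chromosomes 2, 3, 4, 5, 7, 9, 10, 12, 13, 15, 16, 17, 18 and 19 were examined. They were selected on the measured width, as the peaks under 100 bp wide, and the peaks of at least 100 and under 180 bp on these 14 autosomes served as the comparison. There were 342 narrow peaks among the 2186 peaks of these chromosomes (15.6%, exact 95% interval 14.1 to 17.2%) and among 4117 peaks in all. The comparison class held 1528 peaks. Because the width chose the narrow peaks, and the score comes from the same peak call, widths, scores and tag numbers are given as descriptions and were not tested between the classes.

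The cells were E14, a mouse embryonic stem cell (mESC) line kept without feeder cells in serum medium containing leukaemia inhibitory factor. Chromatin immunoprecipitation (ChIP) with an antibody to the Flag tag gave 1 library from cells with Flag-USP21, and chromatin taken without antibody gave 1 input library, whose values were not used here. The study made E14 lines with Flag-USP21 knocked in at the Rosa26 locus under the CAG promoter, and the labels do not say which line or USP21 form was sequenced. With 1 ChIP library there were no replicates, so the intervals below cover counting error of peaks or tags only.

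USP21 is a deubiquitinase, an enzyme that removes ubiquitin from proteins. Monoubiquitinated histone H2A, a mark that polycomb repressive complex 1 places on repressed genes, is one of its known substrates, and the study asked whether Nanog, a pluripotency factor of mESCs, brings USP21 to chromatin. ChIP-Seq locates such a protein as stretches where sequenced tags pile up beyond background. A narrow peak is thus a stretch in which the tags lay very close together. Positions are those of the deposited list, for which the submitters' processing notes name mm9, and the sequence and genes under them were not analysed here.

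In score, the narrow peaks stood above the comparison class. In the MACS14 layout the score is 10 times the negative log10 of the peak caller's p-value, so that 100 stands for a p-value of 1e-10. The lowest narrow peak scored 40.18, the median was 87.39 (95% interval 85.55 to 97) and the highest was 829.62. The comparison class had a median of 50.15 (49.65 to 51.02), with a range from 40.08 to 1010.02. The ranges of the classes therefore overlapped throughout, whereas their medians lay apart. A score of at least 100 was found for 130 narrow peaks (38.01%, exact 95% interval 32.8 to 43.4%) and for 142 comparison peaks (9.29%, 7.88 to 10.9%). A score below 50 was found for 14 narrow peaks and for 751 comparison peaks. Of all 374 peaks with a score of at least 100 on these chromosomes, 34.8% were narrow. The 374 also included peaks of 180 bp or more, of which these chromosomes held 316. A score of at least 100 was thus not particular to narrow peaks, and the scores of these wider peaks were not compared separately. The narrow peaks covered only 27.8 kb, since their median width was 82 bp within a range of 61 to 99 bp.

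The score changed along the width. Among the 63 peaks of 60 to 69 bp, the median score was 110.83 (95% interval 98.94 to 123.03) and 57.1% reached 100. The median was 87.39 for the 86 peaks of 70 to 79 bp and again 87.39 for the 106 peaks of 80 to 89 bp. It was 65.45 for the 87 peaks of 90 to 99 bp (60.58 to 81.34), of which 28.7% reached 100. Next to them, outside the limit, the 99 peaks of 100 to 109 bp had a median of 63.77 (55.14 to 65.45). Thus the limit of 100 bp cut a gradual series, and the peaks on its inner and outer side had overlapping intervals. From there the median fell to 45.28 at 140 to 149 bp, the width step with the most peaks (342 peaks), and it was 57.52 at 170 bp and above within the comparison class. The share of peaks that reached 100 was 5.85% at 140 to 149 bp and rose again to 18.7% in this last step. The highest scores were not those of the narrowest peaks. No peak under 70 bp exceeded 244.41, and the 2 highest scores of narrow peaks belonged to widths of 90 and 91 bp.

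The peaks of 99 and 100 bp, on either side of the limit, are examples. The 3 highest-scoring peaks of 99 bp had scores of 132.36 (chr10:32423665-32423763), 87.39 (chr17:16154359-16154457) and 65.45 (chr16:52894022-52894120). The 3 highest-scoring peaks of 100 bp had scores of 110.83 (chr10:117922685-117922784), 99.04 (chr3:113118804-113118903) and 85.55 (chr12:107881493-107881592). The scores of these groups interleaved.

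**Figure D1:**
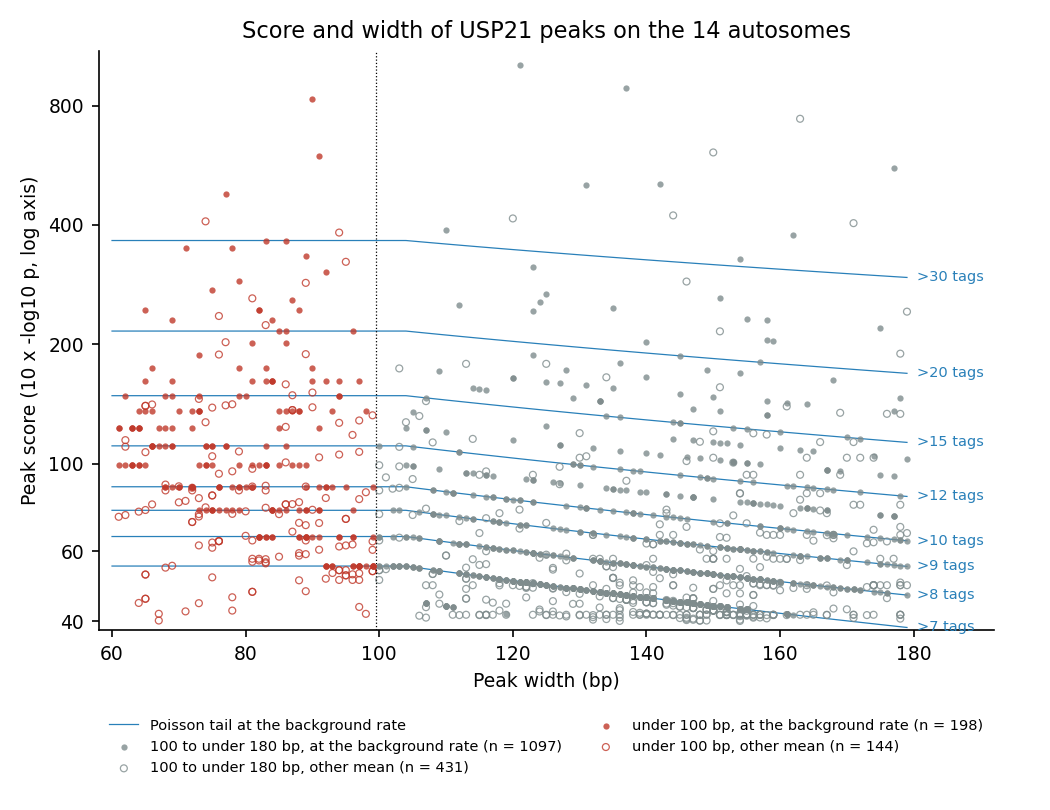
Score (10 times the negative log10 p, log axis) against width in bp of the 342 narrow peaks (red) and 1528 peaks of the comparison class (grey). Blue lines are Poisson tails beyond 7 to 30 tags at the background rate. Filled points lie on such a tail and open points do not. Below 104 bp the lines are flat, so that the filled narrow peaks lie in rows at equal scores, from 55.14 upwards.

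Next, the number of tags behind the narrow peaks was read from the scores, since the list gives no counts. Over the whole list of 4117 peaks, the scores of 2212 were Poisson tails at a background of 8.13 tags per kb. Tags were counted over the peak or over 104 bp, whichever was wider. Every narrow peak is shorter than 104 bp. In this reading its width does not enter the score at all, and the background mean is 0.845 tags for each of them. Among the narrow peaks, 198 of 342 (57.9%, exact 95% interval 52.5 to 63.2%) had scores of this form, against 1097 of 1528 comparison peaks (71.8%). Because these 198 were picked by the match and share 1 mean, each tag number allows them 1 score. By construction they therefore took only 26 different values, each the tail of a whole tag number. For example, 25 peaks of 68 to 99 bp shared the score 87.39, the tail beyond 10 tags. At 1968 other rates tried with the same 104 bp, each more than 1% away, no more than 7.60% of the narrow peaks matched. The 104 bp had been fitted with narrow peaks scoring below 150 included, so fewer matches at other rates are partly built in. A tail beyond 10 tags is called a tag number of 10 below; the list does not say whether such a peak held 10 or 11 tags.

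Where tag numbers could be read, the narrow peaks rested on more tags than the comparison peaks, although they were shorter. The lowest tag number among the 198 peaks was 7, the median was 11 (95% interval 11 to 12) and the highest was 57. The median corresponded to 13.01 times the background mean. For the 1097 comparison peaks at the background rate, the lowest was 6, the median was 7 (7 to 8) and the highest was 69. A tag number of 7 or less was found for 17 narrow peaks (8.59%, exact 95% interval 5.08 to 13.4%) and for 555 comparison peaks (50.6%, 47.6 to 53.6%). A tag number of at least 10 was found for 139 narrow peaks (70.2%, 63.3 to 76.5%) and for 241 comparison peaks (22.0%, 19.6 to 24.5%). Tag numbers of at least 20 were found for 21 narrow and 23 comparison peaks, or 10.6 and 2.10% of these peaks.

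The distribution over tag numbers was broad. The narrow peaks numbered 17 at 7 tags, 21 at 8, 21 at 9, 25 at 10 and 22 at 11. They numbered 64 at 12 to 16 tags and 28 at 17 or more. By contrast, the comparison peaks had 540 peaks at 7 tags and 196 at 8, and fewer at nearly every further step. An equal tag number gave unequal scores in the classes. A tail beyond 10 tags scored 87.39 in every narrow peak and between 63.86 and 87.39 in the comparison peaks, whose wider intervals have a higher mean. At equal tag numbers the scores thus differ through the width in the formula, which the tag numbers do not contain.

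**Figure D2:**
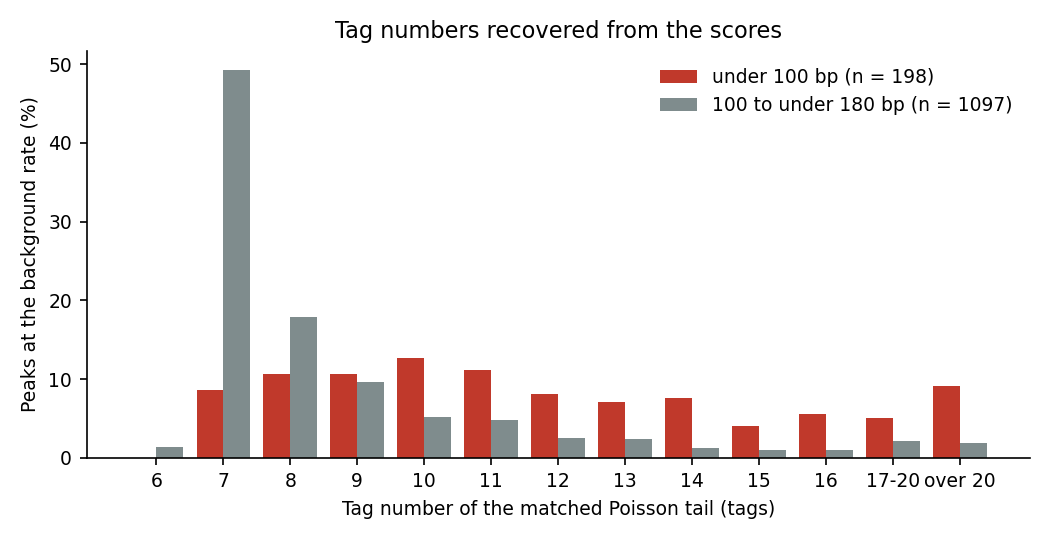
Share of the peaks at the background rate (%) by the tag number of their score, for 198 narrow peaks (red) and 1097 comparison peaks (grey). The grey bars reach 49.2% at 7 tags. The red bars peak at 10 tags with 12.6% and extend further to the right.

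A lower limit to the tag number rose step by step as the peaks became narrower. The narrowest peak at 7 tags was 92 bp wide, and that at 8 tags was 82 bp wide. For 9 tags it was 73 bp, for 10 tags 68 bp and for 11 tags 61 bp. In the comparison class, the narrowest of the 15 peaks at 6 tags measured 107 bp. No narrow peak at the background rate thus had few tags in a very short stretch. The medians followed the same order, with 13 tags under 70 bp (41 peaks), 11 at 70 to 79 bp (47 peaks), 11 at 80 to 89 bp (63 peaks) and 8 at 90 to 99 bp (47 peaks). Across the 198 peaks, Spearman's rho between width and tag number was −0.33 and Pearson's r was −0.09. These peaks come from 1 library and 1 peak call, and the limit itself contributes to rho. Whether the peak caller or the chromatin sets this limit was not tested.

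**Figure D3:**
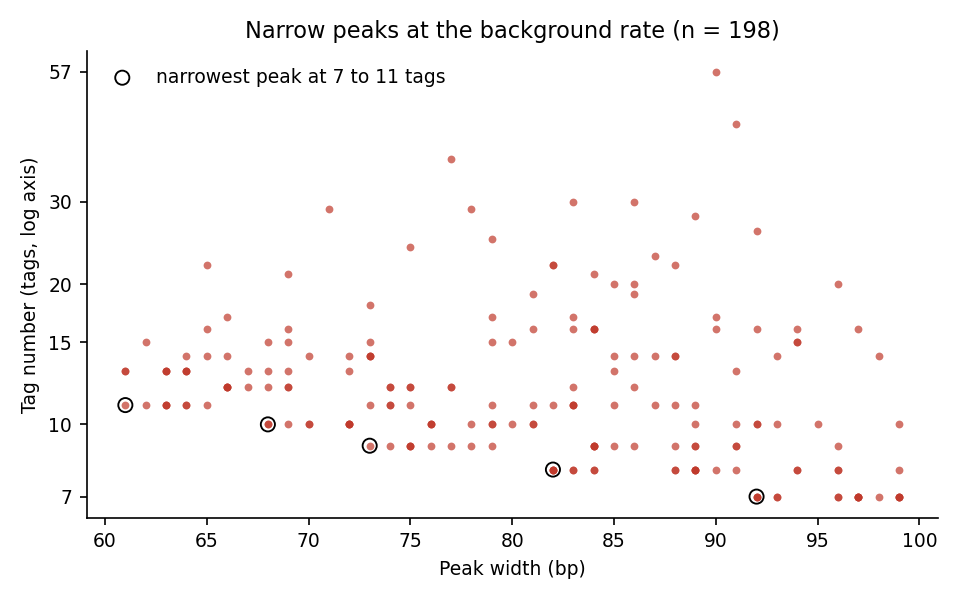
Tag number (log axis) against width in bp of the 198 narrow peaks at the background rate. Circles mark the narrowest peak at each tag number from 7 to 11. They descend from 11 tags at 61 bp to 7 tags at 92 bp, and no point lies below and to the left of them.

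The 10 highest-scoring narrow peaks lay on 6 chromosomes, were 71 to 94 bp wide and had scores of at least 334.16. The strongest was the 90 bp peak chr4:108540451-108540540 with a score of 829.62. Its tag number of 57 is 67.4 times the background mean. The exact Poisson 95% interval of 43.2 to 73.9 covers counting error of tags in this peak, not its choice as the highest. This peak was followed by chr3:84621784-84621874, of 91 bp, with a score of 597.19 and 44 tags. The third was chr9:102030222-102030298, of 77 bp, with a score of 478.48 and 37 tags. These 3 peaks stood alone, since the nearest other peak was 78.3 kb away from the first, 176 kb from the second and 169 kb from the third, between midpoints. None of these neighbours scored above 66.75.

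The scores of the next peaks did not match the background rate. The 74 bp peak chr4:53873573-53873646 had a score of 408.34 and the 94 bp peak chr13:22023021-22023114 a score of 382.58. Neither score was a tail at the background mean, at which they would lie above the tails beyond 32 and 31 tags. A higher mean would need more tags for the same score. The remaining 5 were back on the background rate. The peaks chr13:23488921-23489003 (83 bp) and chr3:37143501-37143586 (86 bp) each had 30 tags and the same score of 365.31. The peaks chr10:41302086-41302163 (78 bp) and chr10:123975518-123975588 (71 bp) had 29 tags and a score of 349.67. The peak chr16:58913472-58913560 (89 bp) had 28 tags and a score of 334.16. In all, 8 of these 10 peaks had scores at the background rate.

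The narrowest peaks, of 61 bp, numbered 4. The pair with the highest scores was chr4:14299956-14300016 and 1 peak on chromosome 18, each with a score of 123.03 and 13 tags. The third was chr15:11252604-11252664, with a score of 98.94 and 11 tags. The fourth, chr13:99266230-99266290, had a score of 73.4, below the median of the narrow peaks and off the background rate. The first 3 lay at least 132 kb from another peak, whereas the fourth lay 615 bp from one.

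The scores of the remaining 144 narrow peaks (42.1%) matched no tail at the background rate. In the comparison class this was so for 431 peaks (28.2%). Background-rate scores were less frequent among the narrow peaks on 13 of 14 chromosomes, with chromosome 19 as the exception (7 of 10 narrow peaks). These chromosomes share 1 peak call and are not replicates. The 144 narrow peaks off the background rate had a median score of 74.55 (95% interval 65.72 to 79.83), against 98.94 (98.94 to 110.83) for those on it. Both had a median width of 82 bp. The 144 held all 33 narrow peaks that scored below 55.14, the lowest value found at the background rate. The rows of equal scores among the other narrow peaks follow from the match that picked them. The number of different scores therefore cannot be compared between the matched and unmatched peaks. As a description, the 144 took 121 different scores, of which 102 occurred once, and at most 3 peaks shared a score. No fixed mean between 0.86 and 6 tags matched more than 7 of the 144. The means, and therefore the tag numbers, of these peaks were not recovered.

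To ask whether narrow peaks were a larger part of the list on some chromosomes, the classes were compared across the 14 chromosomes. Narrow peaks made up between 12.3% of the peaks under 180 bp on chromosome 9 (16 narrow peaks, exact 95% interval 7.20 to 19.2%) and 25.8% on chromosome 13 (39 narrow peaks, 19.1 to 33.6%). Chromosome 3 had the most narrow peaks (45, 23.1%, 17.4 to 29.6%) and chromosome 19 the fewest (10, 21.3%, 10.7 to 35.7%). The intervals of every pair of chromosomes overlapped. The shares did not differ detectably between chromosomes (chi-square 17.2 with 13 degrees of freedom, smallest expected count 8.60, p = 0.188, adjusted p = 0.188 over 2 tests). The higher scores of the narrow peaks were seen on every chromosome. Their median lay between 78.03 on chromosome 19 and 100.63 on chromosome 9, whereas that of the comparison class lay between 48.43 and 54.79. On 14 of 14 chromosomes the narrow median was the higher.

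**Figure D4:**
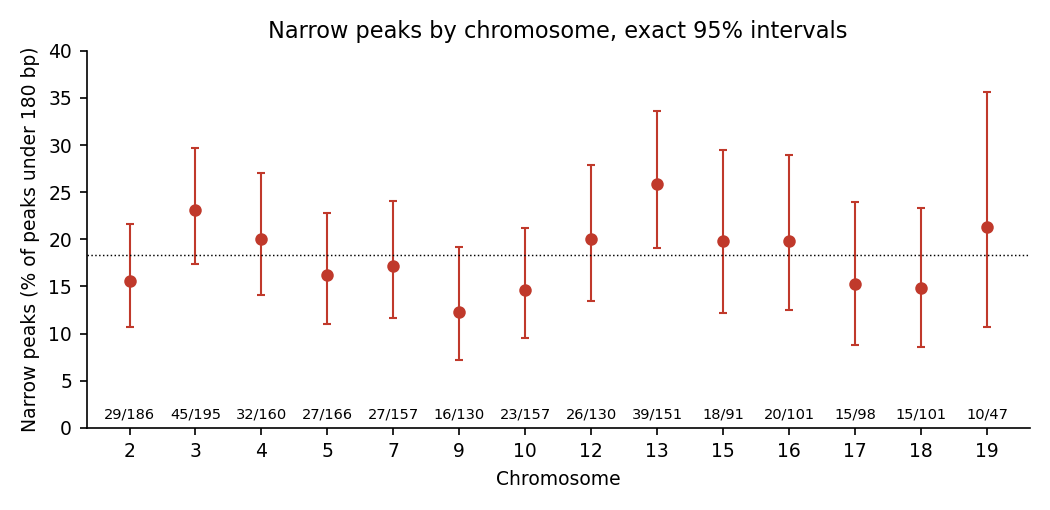
Narrow peaks as a percentage of the peaks under 180 bp on each of the 14 chromosomes, with exact 95% intervals and the counts (narrow over both classes) above the axis. The dotted line is the share over all 14. The points run from 12.3% on chromosome 9 to 25.8% on chromosome 13, with overlapping intervals for every pair.

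The narrow peaks more often had another peak nearby. The midpoint of another peak of any width lay within 10 kb for 29 of 342 narrow peaks (8.48%, exact 95% interval 5.752 to 11.95%) and for 76 of 1528 comparison peaks (4.97%, 3.94 to 6.19%). This difference passed Fisher's exact test, two-sided (odds ratio 1.77, 95% interval 1.09 to 2.80, p = 0.0136, adjusted p = 0.0272 over 2 tests). It was smaller without 1 interval of chromosome 13 described below. That interval was picked because it held the most narrow peaks, so leaving it out cannot decide whether the difference rested on it. Without that interval, 21 of 327 narrow peaks (6.42%) and 74 of 1519 comparison peaks (4.87%) had such a neighbour (odds ratio 1.34, Fisher's exact p = 0.269). Neighbouring peaks are also not independent, since 2 peaks of 1 pair are both counted. Most narrow peaks were solitary: the median distance to the nearest other peak was 249 kb (95% interval 229 to 308 kb), against 256 kb (235 to 279 kb) in the comparison class.

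Among the 29 narrow peaks with a neighbour, the nearest peak was also narrow for 12 (41.4%), was of the comparison class for 15 and was wider for 2. For the 76 comparison peaks with a neighbour, the nearest was narrow for 15 (19.7%). The 12 narrow peaks formed 6 pairs, each counted through both of its peaks, and these shares were not tested. On chromosome 3, a peak of 82 bp (131559245 to 131559326, score 65.45) and one of 94 bp (131559422 to 131559515, score 161.37) lay 183 bp apart. On chromosome 17, peaks of 84 and 82 bp (23683432 to 23683515 and 23684330 to 23684411) with scores of 161.37 and 98.94 lay 897 bp apart. The pair of chromosome 5 was 1554.5 bp apart (140341448 to 140341544, score 128.43, and 140343015 to 140343086, score 86.9). The other 3 pairs were on chromosome 13. The narrow peak closest to another peak of any width was chr13:96599051-96599118, of 68 bp and with 12 tags, at 181.5 bp from a peak of 201 bp with a score of 126.39. Close neighbours of other widths were also found for chr17:16154359-16154457, at 380.5 bp from a 178 bp peak, and for chr5:89890081-89890165, at 599 bp from a 109 bp peak.

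One stretch held far more narrow peaks than any other. On a grid of 5 Mb intervals, 203 intervals held at least 1 narrow peak, with a median of 1. The interval from 20 to 25 Mb on chromosome 13 held 15, and the next highest number was 5, in 2 intervals. It was picked because it held the most, so its number was not tested. Beside the 15 narrow peaks it held 9 comparison peaks and 3 wider ones. Narrow peaks were thus 62.5% of its peaks under 180 bp, against 18.9% on the rest of chromosome 13 (24 narrow and 103 comparison peaks). The exact 95% interval of 40.6 to 81.2% covers counting error only. It does not cover the choice of this stretch for its narrow peaks, so the shares cannot be tested against each other here.

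The narrow peaks of this interval were strong. Their scores ran from 58.58 through a median of 148.33 to 382.58, and 11 of 15 reached 100. On the rest of the chromosome, 6 of 24 narrow peaks reached 100 and the median was 81.05. The comparison peaks of the interval had a median of 67.3, and 2 of 9 reached 100. Of the 15 scores, 11 were at the background rate, with tag numbers of 9 to 30 and a median of 14. The widths were 74 to 94 bp, and the peaks spread over 2595 kb.

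The 15 peaks lay in groups. The first 3 were spaced out, at chr13:21027247-21027320 (score 76.22), chr13:21253268-21253344 (110.83) and chr13:21802861-21802940 (148.33). A second group of 3 began with the strongest peak at 22023021 (score 382.58), followed 43.9 kb away by chr13:22066899-22066975 (202.36) and 89.98 kb away by chr13:22113003-22113092 (151.07). All 3 scores of this group were off the background rate. After a gap, the last 9 followed each other. The peak of 30 tags at 23488921 (score 365.31) and chr13:23492663-23492737 (76.22) were 3738 bp apart. The peaks chr13:23528200-23528278 (174.67, 17 tags) and chr13:23528865-23528950 (135.54, 14 tags) were 668.5 bp apart. Next came chr13:23538009-23538087 (98.94, 11 tags) and chr13:23545309-23545396 (58.58), 7304.5 bp apart. The last were chr13:23592828-23592904 (110.83, 12 tags), chr13:23609558-23609645 (244.41, 22 tags) and chr13:23622217-23622300 (230.06, 21 tags). The first of these had a 123 bp peak with a score of 188 at a distance of 862 bp. In all, 8 of the 15 had another peak within 10 kb.

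**Figure D5:**
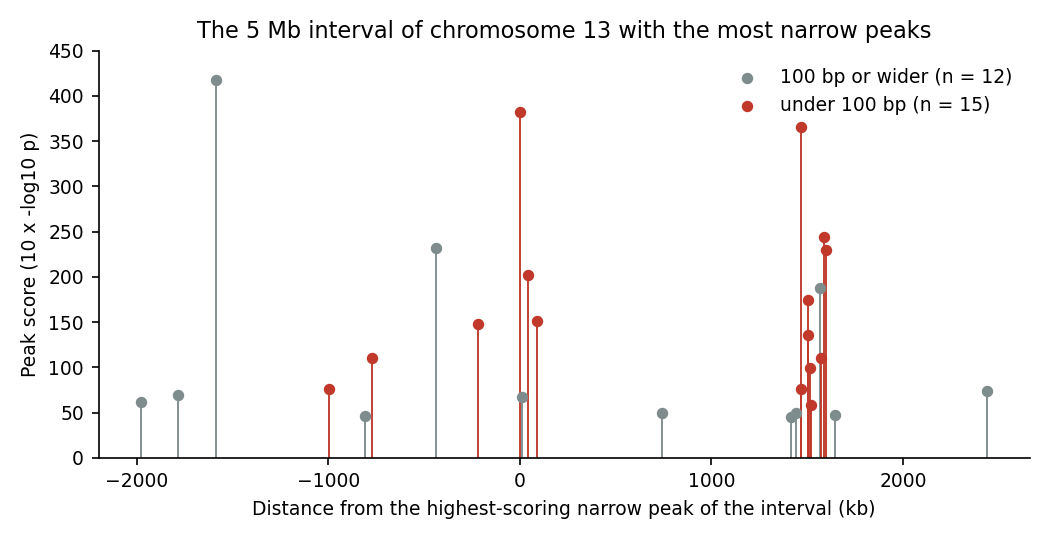
Scores of the 27 peaks of the 5 Mb interval of chromosome 13, against the distance in kb from its highest-scoring narrow peak, with the 15 narrow peaks in red and the 12 peaks of 100 bp or more in grey. Red peaks gather around 0 kb and in a second group to the right, where 9 of them follow each other with few grey peaks between.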

How the data were processed

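Per the labels, the series held 1 Flag-USP21 ChIP and 1 input library, grouped by their titles. The authors called the peaks, with MACS14 names in the list, and deposited a score and the start and end of each peak. The submitters' processing notes name CASAVA 1.4, Bowtie 0.12.7 and mm9, whereas the methods name mm10, MACS version 2 in broad mode and an IgG control. The control behind this list is not given in the sources used here. On the 14 autosomes, 11 peaks ended beyond the GRCm38 chromosome, so no sequence or annotation of GRCm38 was used and the planned annotation shares were not run.

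Width was end minus start in the deposited BED layout, and positions are printed 1-based. Scores were matched within 0.015 to Poisson tails, with the rate and the smallest window fitted by the number of matches over peaks of all chromosomes with scores below 150 and widths under 400 bp, and then applied to the whole list. The fit was tested on simulated data. Its tag numbers were drawn evenly, unlike those of this list, so the simulation does not give the share of wrong matches here. Medians carry order-statistic and shares exact Clopper-Pearson 95% intervals. Shares were compared by a chi-square test and Fisher's exact test, adjusted by Benjamini-Hochberg. Alternatives covered the width limit, score, comparison class, matching tolerance and neighbour distance. The depth of the library is unknown. The peaks named are the 10 highest-scoring, the 3 narrowest, 3 on each side of the limit and the 5 closest to another peak; pairs and the densest 5 Mb interval were added after their values were seen. The peak class and its limits were chosen with earlier results of these data known. Computations used scipy 1.17.1, numpy 2.4.6 and pandas 2.3.3 under Python 3.11.15, and plots matplotlib 3.10.9.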

Additional observations from a re-analysis of the deposited data

How the results depend on the processing

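The share of narrow peaks moved with its definition, to 11.7% under 90 bp, 20.2% under 110 bp, 24.2% with scores from 50 up, 34.8% with scores from 100 up and 12.8% over all autosomes and X. The median score of 87.39 was 83.09 under 110 bp, and that of the comparison class was 52.13 with all peaks of at least 100 bp. The median tag number was 10 under 110 bp. The chi-square test over chromosomes stayed above p = 0.05 in its 5 alternatives, with p from 0.152 to 0.577. The odds ratio of a neighbour stayed above 1 in its 8 alternatives, but no longer passed the threshold within 1 kb (1.72), with scores from 50 up (1.79) or from 100 up (1.85), where 5 narrow peaks had a neighbour, or without the densest interval (1.34), an alternative chosen after seeing the data. The first 3 rest on fewer neighbours by construction. No paired analysis was possible because the series has 1 ChIP library.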

Other observations

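On the chromosomes left out above, narrow peaks made up 186 of 1931 peaks (9.63%, exact 95% interval 8.35 to 11.04%), a lower share than the 15.6% on the 14 autosomes. The chromosomes had been divided by their peak density in the same list, so this difference was not tested.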
